A study of Saccharomyces cerevisiae with 16 samples.

Results

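The small-subunit processome is the nucleolar assembly in which the 40S ribosomal subunit starts to form. The 40 genes described here encode its U3 small nucleolar RNA proteins, its subcomplexes and early 40S assembly factors, and were matched by symbol or systematic name. SIK1 (YLR197W) stands in the tables as NOP56, and NAN1 is also known as UTP17. Of the 40 genes, 38 had a row in both tables, among 5330 genes listed at 37 °C and 5190 at 15 °C. UTP15 (YMR093W) and UTP21 (YLR409C) had no values to compare and enter only the promoter counts below. The 38 measured genes had enough signal to be compared (normalised values averaging at least 10 over both genotypes, in footprints and in mRNA alike), as did 5197 genes in all at 37 °C and 5012 at 15 °C.

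In budding yeast the processome assembles on the ribosomal RNA precursor while RNA polymerase I is still transcribing it. The U3 RNA pairs with the precursor, the UTP-A and UTP-B subcomplexes, the Mpp10 complex and large scaffold proteins hold the folding RNA, and helicases and a GTPase drive the steps that release the 18S rRNA precursor. The genes belong to the ribosome biogenesis regulon, which is known to be transcribed strongly in growing cells and little under stress. eIF4B, encoded by TIF3, assists the RNA helicase eIF4A when ribosomes are loaded onto mRNA.

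The libraries come from tif3Δ cells (strain FJZ52, TIF3 deleted) and wild-type cells (strain FJZ46, TIF3 intact) of Saccharomyces cerevisiae, 1 strain for each genotype. Both were grown in synthetic complete medium, shifted to 37 °C (experiment 1) or 15 °C (experiment 2), and given cycloheximide, which stalls elongating ribosomes, shortly before harvest. Ribosome-protected fragments (footprints) and mRNA were sequenced in 2 libraries for each combination of genotype, temperature and type, 16 libraries in 8 groups. The labels do not give the time spent at the new temperature, and temperature cannot be told apart from experiment. The series asks which mRNAs depend on eIF4B for translation. Here that question is put to the mRNAs of a single nucleolar machine.

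Each table holds 1 log2 normalised value per gene and group and the authors' log2 differences, coded as tif3Δ minus wild type. Translational efficiency (TE) divides a gene's footprints by its mRNA, so on the log2 scale it is the footprint value minus the mRNA value. No difference below has a replicate check, an error between libraries or a test, and "higher" and "lower" describe group values. Because values are normalised within a table, they are relative to the other genes of that table. Low footprint values fall on evenly spaced steps, each worth 1 footprint, which puts the depth at about 11900000 footprints in tif3Δ and 17500000 in wild type at 37 °C, and at about 1800000 in tif3Δ and 5400000 in wild type at 15 °C. For mRNA the depth is unknown. TIF3 mRNA stood at log2 3.1 in tif3Δ and 11.2 in wild type at 37 °C, and at 6.4 in tif3Δ and 10.6 in wild type at 15 °C. Behind the 38 processome genes stood between about 270 (UTP30) and 6509 (SIK1) footprints in tif3Δ at 37 °C. At 15 °C they had between about 42 (UTP30) and 1612 (NOP58) footprints in tif3Δ. Counting error alone then gives a log2 footprint difference an SE between 0.02 and 0.11 at 37 °C and between 0.04 and 0.25 at 15 °C, without the spread between libraries.

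The genes share upstream sequence that the choice of members did not use. Genes of ribosome biogenesis are known for 2 promoter elements, PAC (core GATGAG), bound by the repressors Dot6 and Tod6, and RRPE (core AAAATTTT), bound by Stb3. Both cores were searched on both strands in the 300 nt before the start codon in the R64 reference. RRPE reads the same on both strands, and the 2 cores cannot share a base. PAC stood in 35 of the 40 windows (87.5%), against 19.1% of the windows of 6001 nuclear protein-coding genes. RRPE stood in 30 of 40 (75%), against 9.42% of all windows. Both were present in 28 of 40 (70%), against 4.45%, and neither in the windows of EMG1, UTP22 and UTP30. Lists of other ribosome assembly genes, described below, had both in 68.9% (60S factors), 60% (other early 40S factors) and 53.3% (later 40S factors) of windows. In the same order, PAC stood in 88.5%, 76.7% and 80% and RRPE in 78.7%, 66.7% and 60%. The cores are therefore not particular to the processome genes. The 8 stretches below come from genes that hold extreme differences described later, and in each of them both elements lie within 30 nt. Other genes with extreme differences lack the pair, such as UTP22 with neither core and SOF1 and RRP9 with PAC alone. They are written 5′ to 3′ on the strand of the gene, with the cores in capitals, from the R64 reference.
PWP2 (chrIII:223360-223389, minus strand): ttttggaAAAATTTTgcGATGAGctgaaag
KRR1 (chrIII:23456-23485, minus strand): ttagcGATGAGatatgAAAATTTTcaaaaa
UTP20 (chrII:227446-227475, plus strand): tttccgAAAATTTTtaccGATGAGcattga
UTP10 (chrX:217400-217429, minus strand): gaaaAAAATTTTcagttagcGATGAGctag
UTP14 (chrXIII:82974-83003, plus strand): AAAATTTTtcaaattcctatggcGATGAGc
UTP6 (chrIV:1359002-1359031, minus strand): AAAATTTTttagaaagatctgggcGATGAG
BUD21 (chrXV:472599-472628, plus strand): tgAAAATTTTtcttttcaagcGATGAGgtt
MPP10 (chrX:438770-438799, plus strand): cagAAAATTTTcaattttgcGATGAGctct
KRR1 has PAC upstream of RRPE, and the others have the reverse order. The stretch of MPP10 ends 66 nt before its start codon and that of UTP20 ends 161 nt before it, so the spacing to the coding sequence is not fixed. A match is a description of the letters and does not show that a factor binds there.

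At 37 °C the processome genes had fewer footprints in tif3Δ than in wild type nearly throughout. The log2 footprint difference was below 0 for 33 of 38 genes in the authors' deposited table, against 48.1% of all genes tested, with a median of -0.25 against 0.02. Footprints were at least 1.5-fold lower in 8 of the 38 (13.2% of all genes tested) and at least 1.5-fold higher in 0 (12.1% of all). The mRNA difference was below 0 for 28 of 38 (51.1% of all), with a median of -0.11, and it was at least 1.5-fold lower for 2 (8.87% of all) and higher for 0 (8.77% of all). The TE difference was below 0 for 25 of 38 (47.4% of all), with a median of -0.12, and it was at least 1.5-fold lower for 5 (11.1% of all) and higher for 0 (10.3% of all). The shares at least 1.5-fold lower in mRNA and TE lie near those of all genes, while the signs of the footprint differences do not divide as those of all genes do.

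The large scaffold proteins outside UTP-A and UTP-B stood lowest in TE at 37 °C. UTP20 (YBL004W) encodes a huge repeat protein of 2493 residues that wraps the assembling particle. Its log2 footprint value was 10.73 in tif3Δ and 11.76 in wild type, or about 1569 and 4719 footprints at the unequal depths, while its log2 mRNA value was 10.8 in tif3Δ and 10.6 in wild type. In the authors' deposited table its TE difference was -1.24, a 2.36-fold lower TE, the lowest of the 38. UTP22 (YGR090W), a scaffold of the UTP-C module, had a log2 footprint value of 10.48 in tif3Δ and 11.24 in wild type, with log2 mRNA of 11.2 in tif3Δ and 10.9 in wild type. The authors' deposited table put its TE difference at -1.03. RRP5 (YMR229C), an RNA-binding protein needed for both subunits, had a log2 footprint value of 11.94 in tif3Δ and 12.62 in wild type, and its TE difference was -0.83 in the authors' deposited table. All 3 had fewer footprints and slightly more mRNA in tif3Δ, so footprints and mRNA lay on opposite sides of 0. Against genes in the same decile of coding length, their mRNA differences were -0.06 (UTP20), 0.0015 (UTP22) and -0.11 (RRP5). The higher mRNA was thus shared with genes of that length. Their footprint differences on that scale were -0.72, -0.44 and -0.36.

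The UTP-A subcomplex, also called t-UTP, is the first to join the precursor and is known to act in rDNA transcription as well. All 6 of its measured genes had lower footprint values in tif3Δ at 37 °C, with a median difference of -0.42 in the authors' deposited table. UTP10 (YJL109C), its longest subunit with 1769 residues, had a log2 footprint value of 11.22 in tif3Δ and 11.93 in wild type and a log2 mRNA value of 11.8 in tif3Δ and 11.4 in wild type. With the highest mRNA difference of the 38 (0.33) and a footprint difference of -0.71, its TE difference was -1.04 in the authors' deposited table, between those of UTP20 and UTP22. UTP5 followed within the group, at a footprint difference of -0.64 and a TE difference of -0.54 in the authors' deposited table. NAN1, UTP8 and UTP4 had TE differences of -0.40, -0.39 and -0.13 there, and UTP9, the shortest of the 6, had one of 0.02 in the authors' deposited table.

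The UTP-B subcomplex binds the 5′ external transcribed spacer beside U3. Its 5 measured genes had a median footprint difference of -0.32 and a median TE difference of -0.42 in the authors' deposited table at 37 °C. PWP2 (YCR057C), a tandem WD-repeat subunit, had the lowest footprint difference of all 38 genes, with a log2 value of 9.32 in tif3Δ and 10.68 in wild type. The authors' deposited table put its footprints 2.56-fold, its mRNA 1.62-fold and its TE 1.58-fold lower. PWP2 lies on chromosome III, whose genes as a whole stood lower in tif3Δ at this temperature, as described below. DIP2 and UTP13, also WD-repeat proteins, had TE differences of -0.48 and -0.42 in the authors' deposited table with mRNA differences of 0.02 and 0.10. UTP18 stood near 0 in TE, at -0.09 in the authors' deposited table. UTP6 (YDR449C), the shortest, had equal log2 footprint values of 9.31 in tif3Δ and in wild type, with log2 mRNA of 9.5 in tif3Δ and 9.8 in wild type, and a TE difference of 0.33 in the authors' deposited table.

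Proteins of the U3 snoRNP differed little at 37 °C. NOP1 is the methyltransferase fibrillarin, SIK1 and NOP58 are the core proteins that hold the guide RNA, and RRP9 is specific to U3. Log2 footprint values were 12.19 in tif3Δ and 12.46 in wild type for NOP1, 12.79 in tif3Δ and 12.96 in wild type for SIK1, 12.51 in tif3Δ and 12.65 in wild type for NOP58, and 9.47 in tif3Δ and 9.53 in wild type for RRP9. All 4 were lower in tif3Δ, with differences from -0.27 (NOP1) to -0.06 (RRP9) in the authors' deposited table. Their TE differences in the authors' deposited table had a median of 0.01, from -0.31 for SIK1 to 0.21 for RRP9. The 3 genes of the Mpp10 complex, which joins U3 to the precursor, had footprint differences of -0.25 (MPP10), -0.18 (IMP3) and 0.00 (IMP4) in the authors' deposited table. IMP4 had a log2 mRNA value of 9.1 in tif3Δ and 9.4 in wild type, against log2 footprint values of 9.21 in tif3Δ and 9.2 in wild type, and its TE difference was 0.32 in the authors' deposited table.

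The enzymes and their cofactors all had lower footprint values in tif3Δ at 37 °C, with a median of -0.23 in the authors' deposited table. ECM16, the DEAH helicase known as Dhr1 that frees U3, stood lowest at -0.41, followed by the DEAD-box helicase ROK1 at -0.33, both from the authors' deposited table. BMS1, the GTPase, EMG1, the methyltransferase of 18S rRNA, UTP14, which activates ECM16, and RCL1, the partner of BMS1, lay between -0.24 and -0.15 in the authors' deposited table. TE did not move in 1 direction among them, with 3 of 6 below 0, from -0.38 for BMS1 to 0.12 for UTP14 in the authors' deposited table.

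Among the other 11 assembly factors, mRNA was below 0 for 10 and footprints for 8 at 37 °C. KRR1 (YCL059C), a KH-domain protein of the early particle, had a log2 mRNA value of 8.5 in tif3Δ and 9.7 in wild type, and a log2 footprint value of 9.27 in tif3Δ and 10.19 in wild type. Of the 38, it had the lowest mRNA difference in the authors' deposited table (2.33-fold lower), with footprints 1.89-fold lower and TE 1.23-fold higher. UTP11 and UTP30, small assembly proteins, had the next lowest mRNA differences after KRR1 and PWP2, at -0.49 and -0.44 in the authors' deposited table. BUD21 (YOR078W, also UTP16) had the highest TE difference, with a log2 footprint value of 8.53 in tif3Δ and 8.34 in wild type and a log2 mRNA value of 9.0 in tif3Δ and 9.4 in wild type. Its TE was 1.44-fold higher in the authors' deposited table, and that of UTP23, a PIN-domain protein, was 1.37-fold higher. NOP14 and its partner NOC4 each had a TE difference of -0.21 in the authors' deposited table. ENP2 had footprints 1.53-fold lower, while SOF1, at log2 9.77 in both genotypes, and ENP1 and UTP7 stayed within 1.5-fold in the authors' deposited table.

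**Figure D1:**
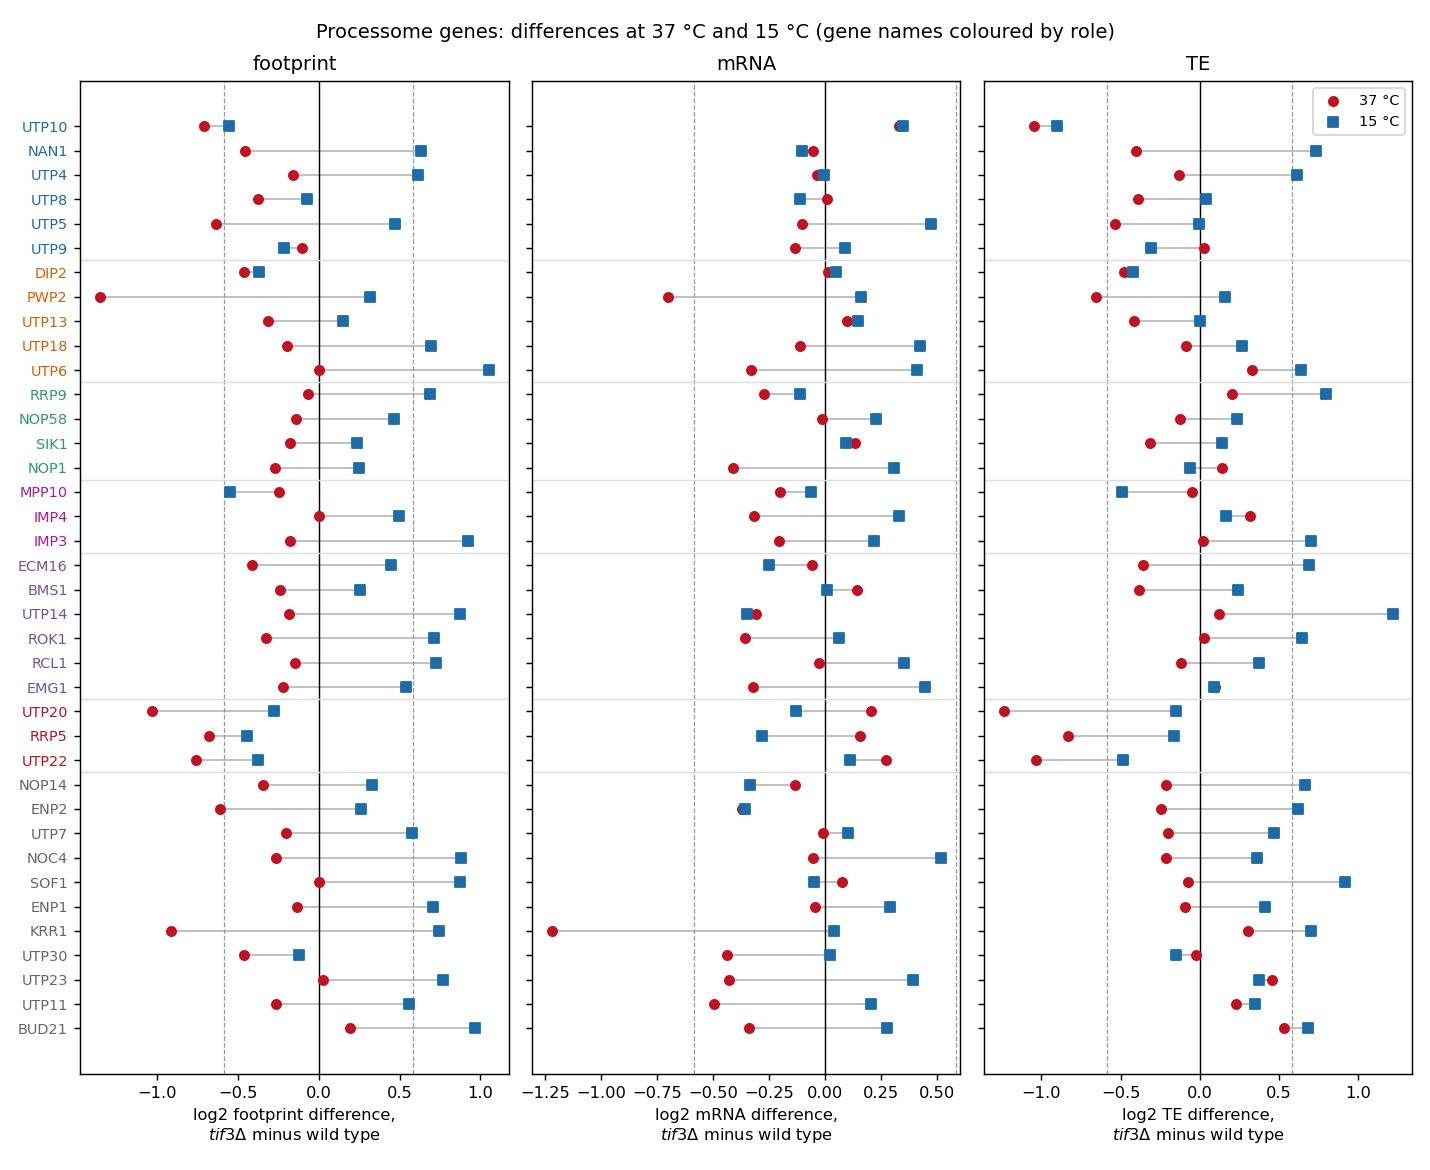
Log2 differences (tif3Δ minus wild type) of footprints, mRNA and TE for each of the 38 genes, one per line, at 37 °C (circles) and 15 °C (squares), from the authors' deposited table. Names are coloured by role, each role runs from its longest to its shortest gene, and dashed lines mark 1.5-fold. Footprint circles lie left of 0 for 33 genes and squares right of 0 for 29.

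KRR1 and PWP2 are the 2 members on chromosome III, and their mRNA values moved with those of the chromosome. At 37 °C the median mRNA difference of the 127 genes tested on chromosome III was -0.79 and 117 of them were below 0, while the medians of the other 15 chromosomes lay between -0.05 and 0.14. The footprint median of chromosome III was -0.81 and its TE median 0.06. Against the chromosome's own median, the mRNA difference of PWP2 was 0.09 and that of KRR1 was -0.43. With chromosome III left out, or with each gene set against its own chromosome, 0 processome genes had mRNA at least 1.5-fold lower at 37 °C. The shares of all genes tested in these settings were 7.38% and 7.25%. At 15 °C the median of chromosome III was 0.02, and KRR1 and PWP2 stood at 0.04 and 0.16 in the authors' deposited table. The part of the chromosome's shift in the values of these 2 genes was not tested. Their TE differences at 37 °C, -0.66 for PWP2 and 0.30 for KRR1 in the authors' deposited table, set footprints against mRNA of the same gene.

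**Figure D2:**
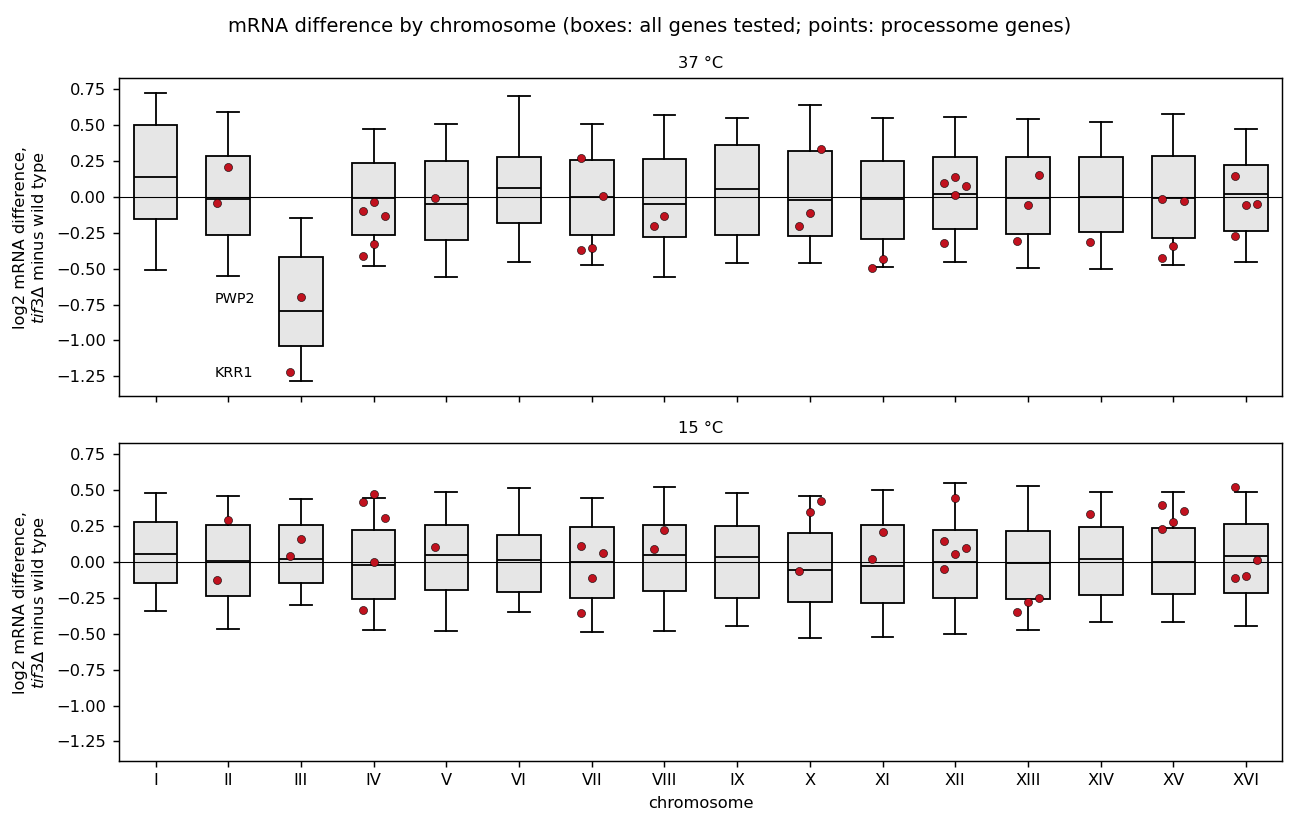
Log2 mRNA differences (tif3Δ minus wild type) by chromosome at 37 °C (top) and 15 °C (bottom), for all genes tested (boxes from the lower to the upper quartile, line at the median, whiskers from percentile 10 to 90) and for the 38 processome genes (points). At 37 °C the box of chromosome III lies below the others, with PWP2 and KRR1 in its range, and at 15 °C it does not.

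At 15 °C the processome genes stood on the other side. The log2 footprint difference was above 0 for 29 of 38 genes in the authors' deposited table, against 50.5% of all genes tested, with a median of 0.48 against 0.01. Footprints were at least 1.5-fold higher in tif3Δ for 15 of the 38 (16.0% of all genes tested) and at least 1.5-fold lower for 0 (20.7% of all). The TE difference was above 0 for 28 of 38 (49.7% of all), with a median of 0.31, and it was at least 1.5-fold higher for 13 (13.9% of all) and lower for 1, UTP10 (18.9% of all). The mRNA difference was above 0 for 26 of 38 (50.4% of all), with a median of 0.10, and it was at least 1.5-fold higher for 0 (6.78% of all) and lower for 0 (5.85% of all). Of the 3 medians, that of mRNA lay nearest to 0.

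The enzymes and their cofactors all had higher footprint and TE values in tif3Δ at 15 °C. UTP14 (YML093W) had the highest TE difference of the 38, with a log2 footprint value of 9.8 in tif3Δ and 8.95 in wild type, about 415 and 680 footprints at the unequal depths. Its log2 mRNA value was 7.9 in tif3Δ and 8.2 in wild type, and the authors' deposited table gave a 2.33-fold higher TE. In the authors' deposited table the helicase it activates, ECM16, had TE 1.62-fold higher and the helicase ROK1 had it 1.57-fold higher. RCL1 had footprints 1.66-fold higher, while BMS1 and EMG1 stayed below 1.5-fold in both footprints and TE in the authors' deposited table. EMG1 was among the highest in mRNA, with a log2 value of 9.1 in tif3Δ and 8.7 in wild type.

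All 4 proteins of the U3 snoRNP had higher footprint values in tif3Δ at 15 °C. RRP9 (YPR137W), the U3-specific protein, had a log2 footprint value of 9.3 in tif3Δ and 8.57 in wild type and a log2 mRNA value of 8.3 in tif3Δ and 8.5 in wild type, and the authors' deposited table gave a TE 1.74-fold higher. The box C/D core proteins shared with other snoRNAs stood closer together, at TE differences of 0.23 (NOP58), 0.14 (SIK1) and -0.06 (NOP1) in the authors' deposited table. The Mpp10 complex did not move as a unit. MPP10 (YJR002W) itself had a log2 footprint value of 8.2 in tif3Δ and 8.72 in wild type, and its TE difference was -0.49 in the authors' deposited table. Its partner IMP3, with a log2 footprint value of 8.0 in tif3Δ and 7.12 in wild type, had a TE difference of 0.70 in the authors' deposited table, and IMP4 had one of 0.16. IMP3 rests on about 121 footprints in tif3Δ and 191 in wild type.

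UTP-A and UTP-B each split at 15 °C. In UTP-A, footprints were higher in tif3Δ for NAN1, UTP4 and UTP5 and lower for UTP8, UTP9 and UTP10. NAN1 had a log2 footprint value of 10.1 in tif3Δ and 9.42 in wild type, and UTP10 had one of 9.6 in tif3Δ and 10.11 in wild type. The authors' deposited table put TE at 0.73 for NAN1, 0.61 for UTP4, 0.04 for UTP8, -0.30 for UTP9 and -0.90 for UTP10. UTP5 stood at -0.0023 in TE, its footprint difference of 0.47 matched by an mRNA difference of equal size, also 0.47 in the authors' deposited table. In UTP-B, UTP6 had the highest footprint difference of the 38, with a log2 value of 9.0 in tif3Δ and 7.98 in wild type. Its footprints were 2.08-fold higher, its mRNA 1.33-fold and its TE 1.56-fold higher in the authors' deposited table. UTP18 followed at 1.62-fold higher footprints, PWP2 and UTP13 had differences of 0.32 and 0.15, and DIP2 had footprints 1.29-fold lower in the authors' deposited table.

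The large scaffolds were again among the low genes of the module at 15 °C. Log2 footprint values were 9.3 in tif3Δ and 9.53 in wild type for UTP20, 9.0 in tif3Δ and 9.37 in wild type for UTP22, and 10.4 in tif3Δ and 10.89 in wild type for RRP5. All 3 were lower in tif3Δ, and their TE differences were -0.15 (UTP20), -0.49 (UTP22) and -0.16 (RRP5) in the authors' deposited table. Of the other 11 assembly factors, 10 had higher footprint and TE values in tif3Δ. SOF1 (YLL011W), a WD-repeat protein tied to U3, had a log2 footprint value of 9.6 in tif3Δ and 8.73 in wild type at a log2 mRNA value of 8.4 in both, and its TE was 1.89-fold higher in the authors' deposited table. KRR1 had TE 1.63-fold higher in the authors' deposited table, with a log2 mRNA value of 9.0 in both genotypes. BUD21 (1.95-fold), NOC4 (1.84-fold), UTP23 (1.71-fold) and ENP1 (1.63-fold) also had footprints past 1.5-fold in the authors' deposited table. NOC4 had the highest mRNA difference, with a log2 value of 8.8 in tif3Δ and 8.3 in wild type. NOP14 and ENP2 ran the other way in mRNA, at -0.33 and -0.36, and had TE differences of 0.66 and 0.62 in the authors' deposited table. UTP7 and UTP11 lay just under 1.5-fold in footprints, and UTP30, with about 42 footprints in tif3Δ and 139 in wild type, had a footprint difference of -0.13 in the authors' deposited table.

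Set side by side, the 2 temperatures divide the genes into 24 with footprints lower in tif3Δ at 37 °C and higher at 15 °C, 9 lower at both and 5 higher at both. The 24 make up 63.2% of the 38 genes, against 17.9% of the 4999 genes tested at both temperatures. For 36 of 38 (94.7%) the difference at 15 °C lay above that at 37 °C, against 48.5% of all. The 2 exceptions, chosen after their values were seen, were UTP9 and MPP10. No gene of the 38 had higher footprints at 37 °C and lower ones at 15 °C, against 18.9% of all. The 9 lower at both (23.7%, against 30.6% of all) were UTP8, UTP9, UTP10, DIP2, MPP10, UTP20, UTP22, RRP5 and UTP30. The 5 higher at both (13.2%, against 32.6% of all) were UTP6, IMP4, UTP23, SOF1 and BUD21. Their 37 °C differences in the authors' deposited table lay between 0.0011 and 0.19. The order of the genes was partly kept. The Spearman correlation of the footprint differences at the 2 temperatures was 0.57 across the 38 genes and 0.36 across all, that of TE was 0.45 and 0.33, and that of mRNA was -0.14 and 0.15. These are descriptions across genes, which are not independent. The comparisons share no libraries, but the 2 tables were normalised separately.

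**Figure D3:**
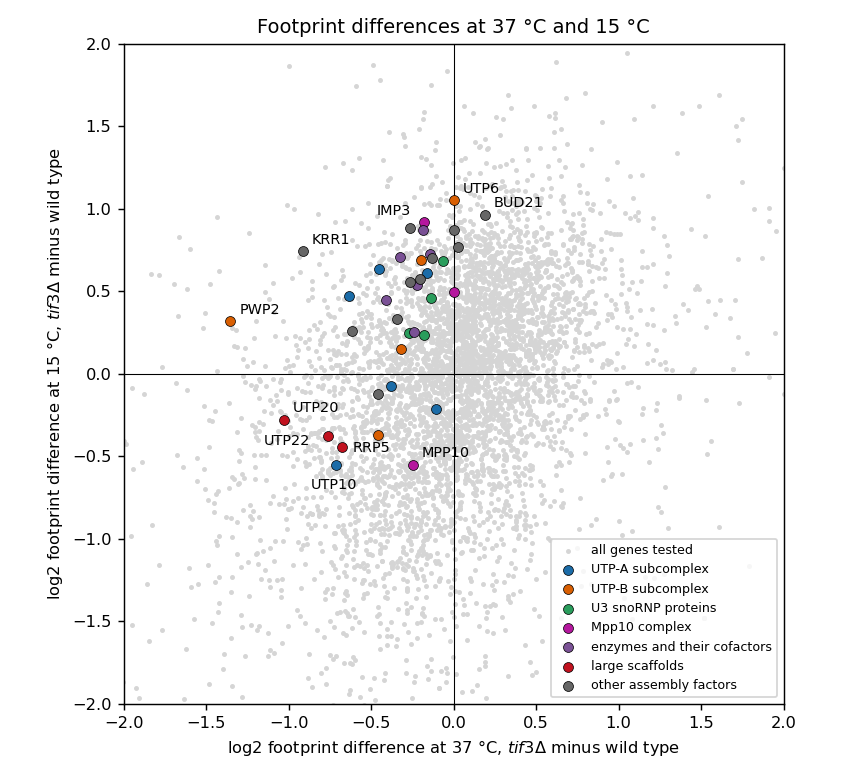
Log2 footprint difference (tif3Δ minus wild type) at 15 °C (vertical) against 37 °C (horizontal), for all genes tested at both temperatures (grey) and for the 38 processome genes coloured by role. A few grey points lie outside the axes. Of the 38 points, 24 lie in the upper left part, with UTP20, UTP22, RRP5, UTP10 and MPP10 among the 9 in the lower left.

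As a share of the footprints on all genes tested, the 38 genes held 0.416% in tif3Δ and 0.539% in wild type at 37 °C. At 15 °C they held 0.740% in tif3Δ and 0.609% in wild type. In each of the 4 groups SIK1, NOP58, NOP1 and RRP5 together held between 35.1% and 40.1% of the module's footprints, so the sum is weighted to the snoRNP core proteins. The shares cross between the temperatures in the same direction as the medians.

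Coding length ran alongside the differences within the module. At 37 °C TE differences and coding length had a Spearman correlation of -0.81 across the 38 genes and -0.65 across all genes tested. Footprint differences had correlations of -0.58 and -0.32 with length, and mRNA differences had 0.59 and 0.34, the first value of each pair for the 38 genes. The 6 genes of 3000 nt or more (UTP10, BMS1, ECM16, UTP20, UTP22 and RRP5) were all below 0 in TE, with a median of -0.93. The 23 genes of at least 1000 but under 3000 nt had a median of -0.13, and 8 of the 9 shorter ones were above 0, with a median of 0.23. All 9 of the shorter genes had mRNA differences below 0. Without UTP10, UTP20, UTP22 and RRP5 the correlation with TE was -0.73 over 34 genes. Set against genes in the same decile of coding length, the medians of the 38 were -0.18 in footprints, -0.20 in mRNA and -0.05 in TE, and 3 genes in place of 5 were above 0 in footprints. UTP20, UTP10, UTP22 and RRP5 lay 0.68, 0.49, 0.48 and 0.28 below the median of their decile in TE, while BMS1 and ECM16 lay 0.17 and 0.20 above it. These 6 share the longest decile, which spans at least 3552 to 7482 nt, so length is matched only coarsely there.

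At 15 °C the correlation between length and TE differences was -0.28 across the 38 genes, and it was -0.03 without the same 4 genes. Among all genes tested it was -0.07. The correlation of length with footprint differences was -0.57 for the 38, and with mRNA differences -0.50. Medians against the same decile of coding length were 0.54 in footprints, 0.13 in mRNA and 0.33 in TE. UTP14, SOF1 and RRP9 lay 1.29, 0.97 and 0.92 above the median of their decile in TE.

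**Figure D4:**
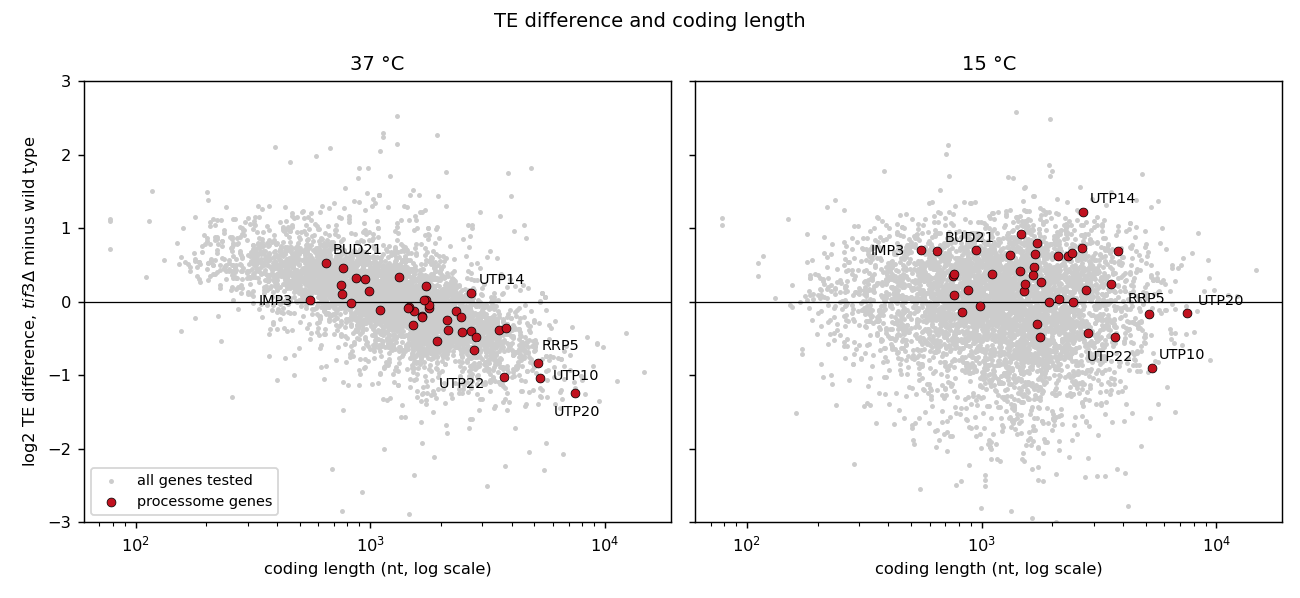
Log2 TE difference (tif3Δ minus wild type) against coding length in nt (log axis) at 37 °C (left) and 15 °C (right), for all genes tested (grey) and the 38 processome genes (red). A few grey points lie outside the axes. At 37 °C the red points descend with length, from BUD21 at 0.53 to UTP20 at -1.24, and at 15 °C UTP14 stands at 1.22 and UTP10 at -0.90.

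Footprints per kb of coding length allow levels of different genes to be compared, here among subunits of 1 complex. In the UTP-B subcomplex at 37 °C the highest subunit had 2.08 times the level of the lowest in tif3Δ, against 1.23 times in wild type. PWP2 had 231 normalised units per kb in tif3Δ, the lowest of the 5, and 592 in wild type, the highest. UTP6 had 480 in each genotype. PWP2 lies on chromosome III, where the median footprint difference of all genes tested was -0.81. Without PWP2 the ratio was 1.14 in tif3Δ and 1.21 in wild type, so the wider spread in tif3Δ at 37 °C rests on PWP2. At 15 °C the ratio was 2.91 in tif3Δ, with UTP6 at 396 and DIP2 at 136, against 1.19 in wild type, where UTP13 stood at 209 and DIP2 at 176. Without DIP2 the 15 °C ratio was 1.71 in tif3Δ and 1.11 in wild type, and without PWP2 both ratios stayed as they were.

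Among the UTP-A subunits at 37 °C the highest to lowest ratio was 2.00 in tif3Δ and 1.77 in wild type, with NAN1 highest and UTP5 lowest in both. Without UTP5 it was 1.63 in tif3Δ and 1.74 in wild type, and without NAN1 it was 1.61 in tif3Δ and 1.35 in wild type. At 15 °C the ratio over all measured subunits was 2.80 in tif3Δ and 1.37 in wild type. UTP5 was highest and UTP10 lowest in both, at 397 and 142 units per kb in tif3Δ and 286 and 208 in wild type. Without UTP10 the 15 °C ratio was 2.09 in tif3Δ and 1.30 in wild type. In the Mpp10 complex at 15 °C, IMP4 had 513 and MPP10 had 162 units per kb in tif3Δ, a ratio of 3.18, against 364 and 237 in wild type, a ratio of 1.54. IMP4 and IMP3 alone had a ratio of 1.08 in tif3Δ and 1.44 in wild type at 15 °C, so the wider spread in tif3Δ there rests on MPP10. At 37 °C the ratios of the 3 proteins were 1.51 in tif3Δ and 1.44 in wild type. In the U3 snoRNP the ratio was the smaller in tif3Δ at both temperatures. RRP9 is known to serve U3 alone, and the other 3 proteins serve all box C/D RNAs. The ratio of NOP1 to RRP9 was 11.6 in tif3Δ and 13.3 in wild type at 37 °C, and 6.67 in tif3Δ and 9.05 in wild type at 15 °C. RRP9 had 355 units per kb in tif3Δ and 221 in wild type at 15 °C. With 1 value per group, none of these ratios has an error. Leaving out single subunits was chosen after seeing the data.

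**Figure D5:**
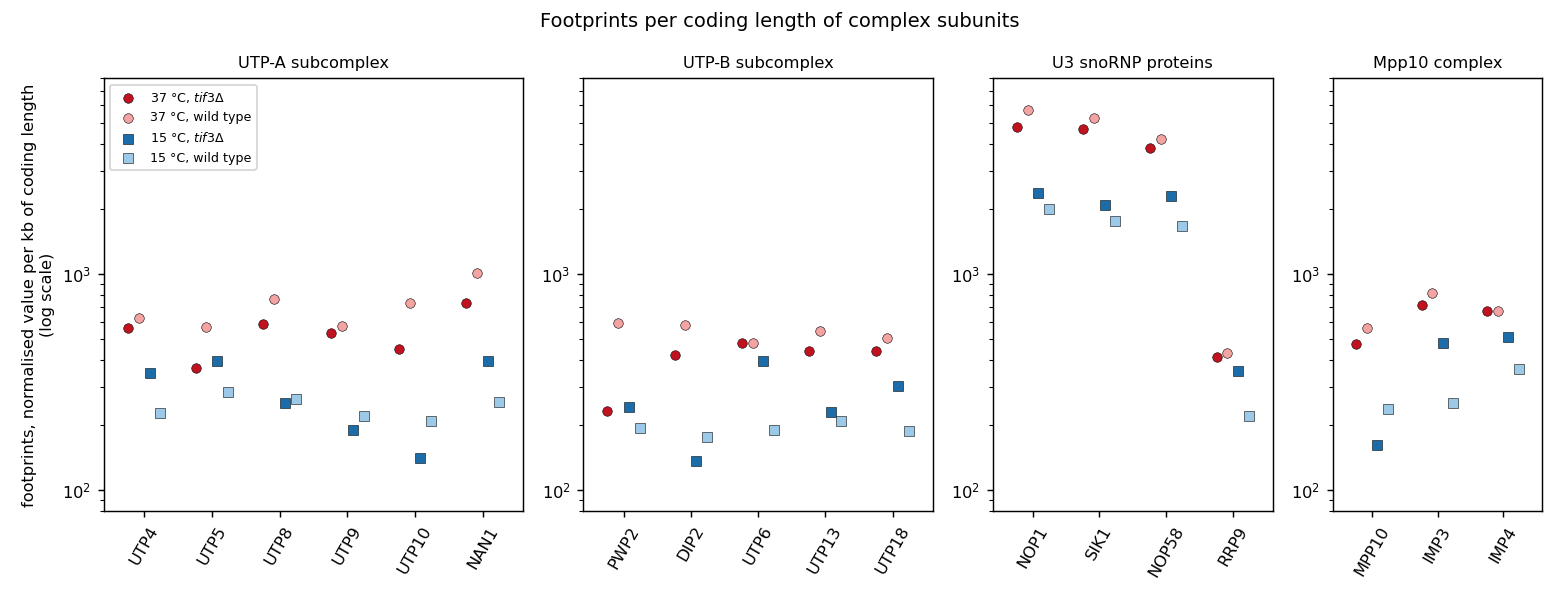
Footprint values per kb of coding length (normalised units, log axis) of the subunits of UTP-A, UTP-B, the U3 snoRNP and the Mpp10 complex, in tif3Δ (dark) and wild type (light) at 37 °C (circles) and 15 °C (squares), 1 value per group. At 15 °C the UTP-B squares spread over 2.91 times in tif3Δ and 1.19 times in wild type.

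TE level sets footprints against mRNA of the same gene and was not corrected for length, although TE differences ran with length at 37 °C. Deposited mRNA values, and tif3Δ footprint values at 15 °C, have 1 decimal, so the second decimal of a TE level is not reliable. Relative to the median gene, the median log2 TE level of the 38 was 0.06 in tif3Δ and 0.26 in wild type at 37 °C. At 15 °C it was 0.40 in tif3Δ and -0.04 in wild type. UTP20 stood 0.06 below the median gene in tif3Δ and 1.17 above it in wild type at 37 °C. UTP14 stood 1.90 above it in tif3Δ and 0.74 above it in wild type at 15 °C. NOP58 was the highest of the 38 in both genotypes at 37 °C, at 1.42 in tif3Δ and 1.56 in wild type.

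Other factors of ribosome assembly, from lists chosen with earlier results of these data known, give the surroundings of the module. The 30 other early 40S factors had medians of -0.19 in footprints, -0.17 in mRNA and -0.04 in TE at 37 °C, and of 0.27, 0.08 and 0.24 at 15 °C. Their lowest TE difference at 37 °C was that of the nucleolin NSR1 (-0.99) and their highest at 15 °C that of RRP36 (1.35) in the authors' deposited table. The 15 later 40S factors had medians of -0.11, -0.27 and 0.20 at 37 °C, in the same order of quantities, and of 0.41, 0.07 and 0.32 at 15 °C. RRP12, a long export factor, was the lowest of these at 37 °C with a TE difference of -1.04 in the authors' deposited table. The 61 factors of the 60S subunit had medians of -0.26, -0.25 and -0.04 at 37 °C and of 0.60, 0.11 and 0.41 at 15 °C, with footprints above 0 for 59 of 61 at 15 °C. Their lowest TE differences at 37 °C were those of URB1 (-1.17) and MDN1 (-0.95) in the authors' deposited table. These 2 had footprint differences of -0.97 and -0.69 and mRNA differences of 0.21 and 0.26, as in the large scaffolds. The highest TE differences of the list were those of RRP15 (0.82) and NOP16 (0.81). The footprint medians of all 3 lists had the same signs as those of the processome, and no difference between the lists was tested. Compared with the 60S factors, the 38 genes had the less negative mRNA median and the more negative TE median at 37 °C. Both gaps were narrower when genes were set against the same decile of coding length. The mRNA medians were then -0.20 for the 38 genes and -0.24 for the 60S factors, and the TE medians were -0.05 and -0.003.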

How the data were processed

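Ribosome footprints and mRNA of yeast were measured in 16 libraries, 2 per group. Per the submitters' processing notes, which give no roles, the build was sacCer2 and the tools included DESeq, TopHat2 2.0.7, Bowtie2 2.0.6 and CASAVA 1.8. The deposited tables hold the authors' log2 normalised value of each gene in each group and the authors' log2 differences. Since they hold 1 value per group, with no statement of how its libraries were combined, the planned tests, which need single libraries, were replaced by descriptions. The members and lists were chosen with earlier results of these data known.

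Counts of genes past 1.5-fold, medians and Spearman correlations were computed with Python 3.11.15, pandas 2.3.3 and scipy 1.17.1 over genes past the filter, without TIF3. The script was tested on simulated data. Footprint numbers came from the value of 1 footprint per group (100%, 97.5%, 84.6% and 85.7% of low values lay within 0.15 steps of a whole number, in tif3Δ and wild type at 37 °C, then at 15 °C) and, for tif3Δ, from the wild-type value plus the authors' difference. Deposited mRNA values have 1 decimal, which limits levels per kb and TE levels. The tif3Δ footprint values at 15 °C also have 1 decimal, which limits TE levels there. Copies with the same values in every column (34 rows at 37 °C, 21 at 15 °C) include no member. Genes were matched by systematic name to R64, used for names, coding lengths, chromosomes and upstream windows; the tables hold no coordinates. No other annotated gene overlapped a member. Full values were given for the 5 highest and 5 lowest members in TE and the 4 and 4 in mRNA and in footprints, at each temperature, and for subunits of 4 complexes; in the other lists the 2 highest and 2 lowest in TE could be named. Alternatives covered filters, centring, source of the difference, coding length, mRNA level, repeated rows, a 2-fold size, chromosome III, chromosome medians and the 4 large scaffolds (UTP10, UTP20, UTP22 and RRP5), the last 3 added after the data were seen.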

Additional observations from a re-analysis of the deposited data

How the results depend on the processing

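Over 24 results and 252 alternative values, 228 stayed within 1.5 times the reported count or inside the binomial interval of the median, 23 moved and 1 reversed. The reversal was the median TE difference at 37 °C, 0.0014 when each gene was set against the same decile of mean mRNA, in place of -0.12; the cause was not tested. There the 37 °C footprint median was -0.17 in place of -0.25. On that scale 1 member had TE at least 1.5-fold higher at 37 °C in place of 0 (6.45% of all genes). At 15 °C 1 had footprints at least 1.5-fold lower on that scale in place of 0 (20.4% of all). Against the same decile of coding length at 37 °C, 4 members were at least 1.5-fold lower in footprints (8 as reported), against 11.5% of all genes. In TE 1 was lower (5 as reported), against 6.28% of all. With length matched, neither count of lower members lay above the share of all genes. Members above 0 numbered 3 in footprints (5 as reported) and 6 in mRNA (10), against 50.0% of all in each. Without UTP10, UTP20, UTP22 and RRP5 at 37 °C, 4 members were lower in footprints (13.1% of all genes) and 1 in TE (11.1%). There 6 members were above 0 in mRNA (48.9% of all). At 15 °C 0 members in place of 1 had TE lower (18.9% of all), UTP10 being the 1 left out. With a 2-fold size at 37 °C, 2 members were lower in footprints (4.81% of all genes), 1 in mRNA (2.81%) and 3 in TE (3.002%). With that size at 15 °C, 1 member was higher in footprints (15 as reported), against 4.07% of all genes. In TE 1 was higher there (13 as reported), against 3.01%, and 0 were lower, against 7.96%. Neither count of higher members at 15 °C lay above the share of all genes at this size. Footprints above 0 at 37 °C numbered 2 after centring on the median gene, 3 from the deposited group values and 2 against the same chromosome. The shares of all genes there were 50.0%, 51.5% and 49.9%. From the group values 1 member had TE at least 1.5-fold higher at 37 °C (10.4% of all genes). Without chromosome III, or against the same chromosome, 0 members had mRNA at least 1.5-fold lower at 37 °C in place of 2. The shares of all genes were 7.38% and 7.25%. The filters and the repeated rows moved none of the 24.

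No paired analysis was possible because the tables hold 1 value per group and no single libraries, and for the same reason no replicate could be left out. The 15 °C footprints of tif3Δ are the least deep, so members such as UTP30 and IMP3 carry the widest counting error there.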

Other observations

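The genes of the 40S ribosomal proteins, the partners that the processome assembles into the subunit, did not follow the assembly factors in each quantity. They were taken by name after the data were seen, and many are paralogs that share reads. At 37 °C the 55 genes tested had medians of 0.04 in footprints, -0.37 in mRNA and 0.45 in TE, with TE above 0 for all 55, while the processome genes had -0.25, -0.11 and -0.12. At 15 °C they had medians of 0.39 in footprints, 0.59 in mRNA and -0.16 in TE, while the processome genes had 0.48, 0.10 and 0.31. Their median coding length was 432 nt against 1725 nt for the processome genes. Set against genes in the same decile of coding length, their medians at 37 °C were -0.20 in footprints, -0.16 in mRNA and -0.01 in TE. The processome genes had -0.18, -0.20 and -0.05 on that scale, so both sets lay close together there. At 15 °C the ribosomal protein genes had 0.12, 0.39 and -0.23 on that scale, and the processome genes had 0.54, 0.13 and 0.33.

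Genes with both promoter cores in the 300 nt before the start codon, 259 among the genes tested at each temperature, had a median mRNA difference of -0.17 and a median footprint difference of -0.19 at 37 °C, and 0.11 and 0.32 at 15 °C. The 3930 genes with neither at 37 °C had medians of 0.02 and 0.05, and the 3769 with neither at 15 °C had -0.02 in both. Of the 3 processome genes with neither core, EMG1 had a footprint difference of 0.54 at 15 °C in the authors' deposited table, and UTP22 and UTP30 had -0.38 and -0.13. At 37 °C all 3 were below 0 in the authors' deposited table, EMG1 at -0.22, UTP22 at -0.76 and UTP30 at -0.46. Their median there, -0.46, lay below that of the 27 processome genes with both cores, -0.27, while among all genes those with neither core lay above those with both. The 27 are among the 259 and the 3 among the genes with neither core, so these values are not independent of each other. Also among the 259 are 42 of the 60S factors, 18 of the other early 40S factors and 8 of the later 40S factors described above.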
